A study of Mus musculus with 401 samples.

Results

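A set of 10 antioxidant genes was followed in single mouse oocytes and in the cumulus cells that surrounded them. The members, given as a list of gene names, were Sod1, Sod2, Cat, Gpx1, Gpx4, Prdx1, Gclc, Gclm, Hmox1 and Nfe2l2, which are 10 of the 43633 gene IDs in the count tables, and each had a count in both cell types. RNA was read with RamDA-seq, a full-length total RNA method for very small samples, from fully grown oocytes at the germinal vesicle stage (arrested before the first meiotic division) and, in a separate library, from the cumulus cells of the same complex. All mice were females of the B6D2F1 cross of C57BL/6 and DBA/2.

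In the first experiment, hyperovulated mice fed ad libitum were young (2 months, 16 oocytes and 15 cumulus pools from 2 mice), middle (9 months, 14 and 15 libraries used from 4 mice) or old (14 months, 16 and 16 libraries), and a calorie restricted (CR) group of 9 months gave 27 oocytes and 25 cumulus pools from 3 mice. The labels join 2 of the old mice as 1 (Old1_2), so the old group had 2 mouse labels. In the second experiment, hyperovulated mice were 2 months (24 oocytes and 24 cumulus pools, 5 mice), 4 months (39 and 40, 8 mice), 9 months (16 and 16, 4 mice) and 14 months old (16 and 16, 5 mice), and 8 further mice of 2 months gave 32 and 32 libraries without hyperovulation. Hyperovulation is a hormone treatment, here eCG or the CARD HyperOva mix, that brings many follicles to growth at once. The restricted diet began in adult mice, and the fed and the restricted middle groups had the same age. The restricted mice were housed singly and fed once a day, and the part of this in their differences was not tested.

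Total counts per oocyte library ran from 559305 to 4536690 and per cumulus library from 510029 to 2501005. Oocyte libraries of CR mice were the deepest, with a median of 3578882 counts against 2332126 in the middle group. Summed markers of cumulus cells in oocyte libraries had group medians of 0.607% to 3.92% of the median cumulus library, and summed oocyte markers in cumulus libraries had medians of 0.058% to 0.154% of the median oocyte library, so the labelled cell types held their own markers. In 16 oocyte libraries of the first experiment, of which 6 carried the label Old1_2, the cumulus markers exceeded 5% of the median cumulus library. A complex of the middle mouse Middle3 (2 libraries) was left out because its oocyte library correlated more strongly with the mean cumulus profile than with the mean oocyte profile. That library had 160 CPM of summed oocyte markers and 27717 CPM of summed cumulus markers. Leaving the complex out leaves 1 oocyte library for Middle3. The paper also removed 1 pair of samples that, by its analysis, held no oocyte, without naming the pair. A cumulus pool is a bulk sample, so fewer cells of a type and less RNA per cell cannot be told apart.

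Cells make superoxide and hydrogen peroxide as they respire, and a chain of enzymes removes both. Superoxide dismutases turn superoxide into hydrogen peroxide, and catalase, glutathione peroxidases and peroxiredoxins then break the peroxide down. Glutathione, the small thiol that feeds the peroxidases, passes between cumulus cells and oocytes through gap junctions and accumulates in maturing oocytes. Many of these enzymes are controlled by NRF2, a transcription factor that is degraded through KEAP1 and CUL3 in unstressed cells and binds antioxidant response elements next to its target genes when it escapes degradation.

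Positions are given on GRCm38. Nfe2l2, on chr2:75675513-75704641, encodes NRF2. The cytosolic dismutase gene Sod1 lies on chr16:90220754-90226329 and the mitochondrial dismutase gene Sod2 on chr17:13006846-13040063. The genes that remove peroxide are Cat (catalase of the peroxisome, chr2:103453849-103485160), Gpx1 (the main cytosolic glutathione peroxidase, chr9:108338903-108340343), Gpx4 (which reduces lipid peroxides in membranes, chr10:80047166-80056439) and Prdx1 (a cytosolic peroxiredoxin, chr4:116685544-116700822). Gclc (chr9:77754535-77794485) and Gclm (chr3:122245557-122270732) encode the catalytic and the modifier subunit of the enzyme that limits glutathione synthesis, and Hmox1 (chr8:75093621-75100589) encodes the inducible heme oxygenase, which breaks heme down to biliverdin, iron and carbon monoxide.

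Because the list holds NRF2 and several of its known targets, the promoters were searched for the core of the antioxidant response element, TGACNNNGC, on both strands. RefSeq windows of 250 bases before to 50 bases after a gene start (GRCm38.p6) matched 8 of the 10 members, and Gclc and Hmox1 had none. The core was found in 4 of those 8, Nfe2l2, Sod1, Prdx1 and Gclm, against 12.4% of all 32851 windows and 14.0% of the 27025 genes with a window. The 250 bases before the start of these 4 genes are printed below, 5′ to 3′ along the gene, with the 9 bases of the core in capitals.
Nfe2l2, minus strand, chr2:75704664-75704913: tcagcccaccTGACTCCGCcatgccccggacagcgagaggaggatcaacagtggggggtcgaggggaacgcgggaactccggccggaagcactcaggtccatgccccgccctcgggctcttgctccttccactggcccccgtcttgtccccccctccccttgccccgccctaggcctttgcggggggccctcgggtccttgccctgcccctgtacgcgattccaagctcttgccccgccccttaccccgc
Sod1, plus strand, chr16:90220512-90220761: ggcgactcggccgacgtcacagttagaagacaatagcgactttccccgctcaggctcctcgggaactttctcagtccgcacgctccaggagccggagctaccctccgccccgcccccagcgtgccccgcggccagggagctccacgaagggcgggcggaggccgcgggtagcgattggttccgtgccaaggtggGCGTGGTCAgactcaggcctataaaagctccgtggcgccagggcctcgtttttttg
Prdx1, plus strand, chr4:116685349-116685598: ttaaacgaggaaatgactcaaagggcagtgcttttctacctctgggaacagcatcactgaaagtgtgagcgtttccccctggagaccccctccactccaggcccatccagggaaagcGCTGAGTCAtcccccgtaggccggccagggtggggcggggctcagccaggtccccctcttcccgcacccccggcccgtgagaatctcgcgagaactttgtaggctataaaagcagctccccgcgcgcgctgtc
Gclm, plus strand, chr3:122245307-122245556: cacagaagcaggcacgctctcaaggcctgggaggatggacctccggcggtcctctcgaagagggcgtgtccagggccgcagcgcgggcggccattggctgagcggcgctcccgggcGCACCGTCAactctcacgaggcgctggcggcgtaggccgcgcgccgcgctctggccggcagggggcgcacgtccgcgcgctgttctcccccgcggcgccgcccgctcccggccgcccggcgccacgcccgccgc
In Nfe2l2 the core read along the gene and began 240 bases before the start, whereas in Sod1, Prdx1 and Gclm it read on the opposite strand and began 56, 133 and 134 bases before it. The windows of Sod2, Cat, Gpx1 and Gpx4 held no match. A match shows only that these letters stand in the window.

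Levels between genes were compared per length, as RPKM (reads per kilobase of transcript, scaled to the reads of the library). Sod1 had the highest level and Prdx1 the second highest in all 18 groups of both cell types. In oocytes, group means ran from 413 to 603 RPKM for Sod1 and from 163 to 179 RPKM for Prdx1. The next highest gene differed between cell types. In oocytes Gclm (9.06 to 11.5 RPKM) and Gpx4 (6.56 to 13.1 RPKM) had overlapping ranges, followed by Gpx1 (4.19 to 10.6 RPKM), Nfe2l2 (3.8 to 7.89 RPKM), Gclc (4.26 to 5.76 RPKM) and Sod2 (3.31 to 4.09 RPKM). Cat, at 0.871 to 3.14 RPKM, and Hmox1, at 0.384 to 4.96 RPKM, were the lowest in most oocyte groups. For Hmox1 the CR oocytes stood apart, at 4.96 ± 0.95 RPKM (SD, n = 3 mice) against 1.02 ± 0.55 RPKM (SD, n = 4 mice) in middle oocytes.

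In cumulus cells Sod1 had 228 to 319 RPKM and Prdx1 105 to 170 RPKM, and Sod2 was the lowest member in every group, at 10.2 to 12.6 RPKM. The other genes lay close to each other, and most neighbours in their order had overlapping ranges of group means. Cat had 30.2 to 38.3 RPKM, Gpx1 27.5 to 39.6 RPKM, Gpx4 27.8 to 37.4 RPKM, Gclc 25.5 to 33.4 RPKM, Nfe2l2 20.1 to 27.5 RPKM, Gclm 17.3 to 26.4 RPKM and Hmox1 17.8 to 40.7 RPKM. Both cell types thus shared the high Sod1 and Prdx1 levels, and the wide gap down to Cat and Hmox1 was seen in oocytes.

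**Figure D1:**
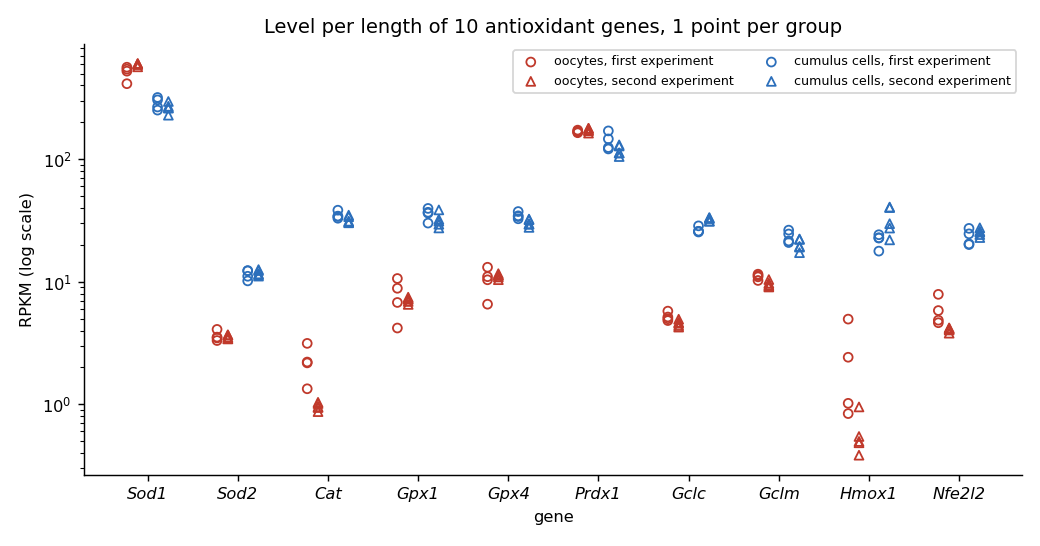
Levels of the 10 genes per length (RPKM, log axis) in oocytes and cumulus cells of both experiments. Each point is a group mean over mice, and Sod1 and Prdx1 sit above the other genes in every group, at 105 to 603 RPKM.

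Some of these levels rest on shared reads. Reads that map to several places were split by the authors' counting, and counts of Gclm were not whole in 97.3% to 100% of libraries, of Prdx1 in 81.9% to 88.2% and of Gpx4, which has the pseudogene Gpx4-ps2, in 77.8% to 83.5%. For Sod1 this was so in 41.7% to 54.1% of libraries and for Sod2 in 11% to 53.1%. Gclm overlaps Gm6061 on its own strand and Gm17494 on the other, Nfe2l2 overlaps Gm24996, and Sod1 overlaps Scaf4 on the other strand. For Nfe2l2 the count was not whole in 0% to 1.4% of libraries. A count that is not whole shows that at least 1 read was split, but not how many. How far the levels of these genes depend on split reads or on the overlaps is not known. Hmox1 in oocytes rests on few reads, with a median of 8.5 counts per library in the first experiment and 2 in the second, where 40 of 127 oocyte libraries had no Hmox1 read.

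The first comparison asked how oocytes differed from the cumulus cells around them. Values within a gene are CPM (counts scaled to library size) of the libraries of a mouse summed, with library sizes scaled by TMM (trimmed mean of M-values), and log2 fold changes come from edgeR's quasi-likelihood test on those sums with Benjamini-Hochberg adjustment over all genes. The replicates within a group are mouse labels, and the p-values measure the spread between those labels. In the second experiment that spread also holds differences between the B1 and B2 codes of the complexes, described below. The main fit had no term for the code. Sod1 and Prdx1 were higher in oocytes and the other genes were higher in cumulus cells. In the first experiment 9 of 10 members passed the test (adjusted p under 0.05), 2 higher in oocytes and 7 higher in cumulus cells, where 75.4% of 34628 genes passed, 39.1% higher in oocytes and 36.3% higher in cumulus cells. In the second experiment all 10 passed, 2 higher in oocytes and 8 in cumulus cells, where 78.1% of 35521 genes passed, 37.8% and 40.4% in each direction. The median log2 fold change of the members was -1.08 and -1.46 in the experiments, beside 0.00022 and -0.21 over all genes tested.

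Sod1 was 1.66 ± 0.13 (log2, estimate ± SE) higher in oocytes in the first experiment and 1.65 ± 0.04 in the second. Its group means were 280 to 360 CPM in first-experiment oocytes against 161 to 205 CPM in cumulus cells, and every mouse had more Sod1 in its oocytes. Prdx1 was 1.09 ± 0.12 higher in oocytes in the first experiment, and 2.06-fold higher in the second (log2 SE 0.05). Its group means in CPM overlapped in the first experiment, 492 to 527 CPM in oocytes against 364 to 520 CPM in cumulus cells when scaled within each cell type, whereas the fold change comes from a joint fit scaled across both. With library totals in place of TMM the median of all genes moved by -0.69 in the first experiment and -0.35 in the second, and Prdx1 was then 0.25 and 0.55 and Sod1 0.82 and 1.16 higher in oocytes. No member changed direction under that scaling or with DESeq2 size factors.

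The members that were higher in cumulus cells spanned a wide range. Hmox1 fell by 2.76 ± 0.18 on the log2 scale from cumulus cells to oocytes in the first experiment and by 5.31 ± 0.16 in the second, and Cat fell by 3.24 ± 0.24 and by 4.57 ± 0.08. All estimates of this comparison are means over the groups of an experiment, and those of the first include the CR group. There oocyte Hmox1 was 27.3% of its cumulus level in CPM, against 3.63% (young) to 8.66% (old) in the fed groups. Gclc fell by 1.51 and by 2.33, Gpx1 fell by 1.46 and by 1.67, and Nfe2l2 fell by 1.21 and by 2.14, so that Gpx1 stood before Nfe2l2 in the first experiment and after it in the second. Gpx4 fell by 0.95 in both, and Sod2 fell by 0.80 and by 1.24. Gclm was the only member that missed the threshold, and only in the first experiment (-0.26 ± 0.12, edgeR adjusted p = 0.0507, against -0.58 ± 0.05, edgeR adjusted p = 2.5e-15, in the second). It passed there with DESeq2, with library totals and without the 16 oocyte libraries rich in cumulus markers.

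**Figure D2:**
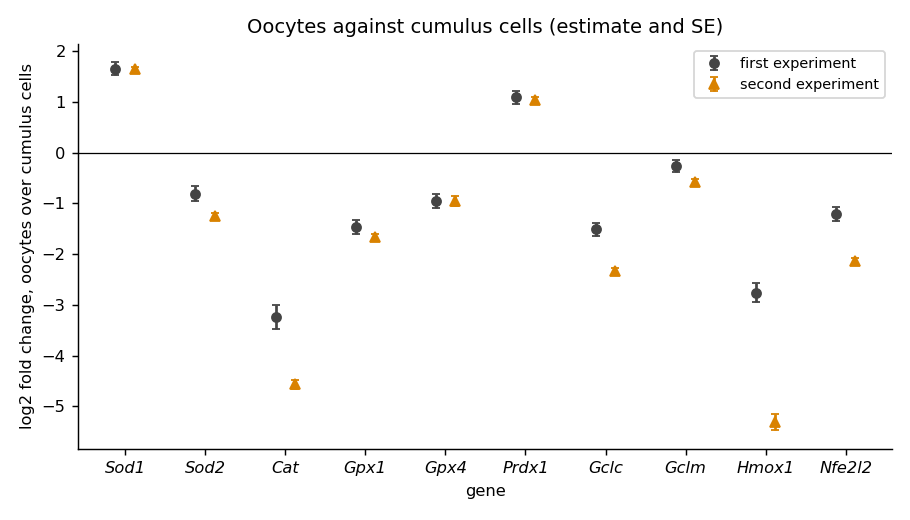
Log2 fold change of each gene, oocytes over cumulus cells, with its SE, for the first (circles) and second (triangles) experiment. Sod1 and Prdx1 lie above 0 in both experiments and the other 8 genes below 0, Hmox1 and Cat furthest.

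Some of the low oocyte levels moved with cumulus markers. In CPM scaled within each cell type, Cat in oocytes was 3.45% to 7.5% of its cumulus level in the first experiment and 2.47% to 3.32% in the second, where the cumulus markers had group medians of 1.02% to 3.92% and 0.607% to 0.861%. Across the 73 oocyte libraries of the first experiment, Cat had a Spearman correlation of 0.57 with the summed cumulus markers, Gpx1 and Gpx4 0.48 each, and Hmox1 0.19, and the other members lay between -0.07 and 0.28. Across the 127 of the second, which held few cumulus markers, Prdx1 (0.33), Sod2 (0.27) and Gpx1 (0.21) had the highest values, and the other members, with Cat at 0.03 and Hmox1 at 0.06, lay between -0.12 and 0.16. Both measures come from the same library and depth, and the part of cumulus RNA in the oocyte levels was not tested.

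Further genes of the same pathways were tested between the cell types. Of 81 tested genes on 4 lists of further antioxidant genes, 73 passed in the first experiment and 77 in the second, 90.1% and 95.1% of the lists beside 75.4% and 78.1% of all genes, with 30 and 27 of them higher in oocytes. The gene of each list with the largest fold change toward oocytes in the first experiment was Gpx6, of the glutathione peroxidase family (21.5 CPM in oocytes against 0.0052 CPM in cumulus cells), Ggt1, which cleaves glutathione outside the cell (28.8 against 0.062 CPM), the repressor Bach2 (119 against 1.18 CPM) and Osgin1 (46.6 against 1.88 CPM). Among the 3 largest of their lists were also Slc7a11, the cystine carrier that supplies glutathione synthesis (970 against 10.6 CPM), and the glutaredoxin Glrx (642 against 7.31 CPM). Toward cumulus cells the leading gene of each list was taken among genes with a mean of at least 8 CPM. These included Osgin2 (29.7 CPM in cumulus cells against 1.24 CPM in oocytes) and the iron exporter Slc40a1 (15.1 against 0.929 CPM). The other lists gave Idh2, which makes NADPH in mitochondria (81.6 against 5.53 CPM), and Gpx7, a peroxidase of the endoplasmic reticulum (69.1 against 4.89 CPM). Below that level, Gpx8 and Msrb2 changed more than Gpx7 (log2 -5.10 and -4.13 against -3.73).

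The second comparison asked what CR did at 9 months. In oocytes Hmox1 and Nfe2l2 rose and Gpx1 fell under CR. These 3 of 10 members passed, where 7.1% of 29104 genes passed, and the median log2 fold change was 0.06 over the members and 0.02 over all genes. On simulated counts this comparison made more false calls than the adjusted p allows, so its adjusted p-values may be too small. Hmox1 was 8, 7.39 and 10.5 CPM in the oocytes of the CR mice and 1.52, 1.34, 0.929 and 3.10 CPM in those of the middle mice. Every CR mouse lay above every middle mouse, and also above the young (1.56 and 1.45 CPM) and old labels (3.86 and 3.61 CPM). The rise was 2.22 ± 0.30 on the log2 scale (edgeR adjusted p = 9.3e-04). Between single oocytes the ranges overlapped, with 2.64 to 14.7 CPM (median 8.52 CPM, n = 27) under CR and 0 to 7.41 CPM (median 1.32 CPM, n = 14) in the middle group. The sums behind these values held 86 to 461 Hmox1 counts per CR mouse and 2 to 29 per middle mouse.

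The Hmox1 level of CR oocytes was 27.3% of that of CR cumulus cells, whereas cumulus markers had a median of 1.32% there. In middle oocytes these were 4.42% and 1.96%. Without the oocyte libraries rich in cumulus markers the rise was 2.87 (edgeR adjusted p = 9.98e-06), and with any 1 mouse left out it was 2.04 to 2.67. With the left-out Middle3 complex put back, the rise was 0.04 (edgeR adjusted p = 0.99) and no member passed. The 3 calls thus rest on leaving out that library. Putting it back counts a library closer to the mean cumulus profile as an oocyte of the middle group.

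Nfe2l2 was 33.2, 33.2 and 26.3 CPM in CR oocytes and 17.1, 17.7, 16.3 and 18.2 CPM in middle oocytes. The groups did not overlap between mice, and the young (19.0 and 17.4 CPM) and old labels (22.6 and 17.3 CPM) lay below the CR mice too. The rise was 0.83 ± 0.15 on the log2 scale (edgeR adjusted p = 0.0057). The level in the other 8 oocyte groups was 14.5 to 19.9 CPM in the mean. Put back, the Middle3 complex gave 0.53 (edgeR adjusted p = 0.27).

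Gpx1 moved the other way, with 6.70, 6.86 and 6.79 CPM in CR oocytes against 14.9, 12.4, 14.4 and 18.5 CPM in middle oocytes. Again no mouse overlapped. Gpx1 fell by 1.15 ± 0.21 on the log2 scale (edgeR adjusted p = 0.0049), and the young oocytes, at 7.91 and 10.7 CPM, lay between the CR and the middle mice. The left-out complex put back gave -1.72 (edgeR adjusted p = 0.051). Gpx4, the other glutathione peroxidase, had 10.5, 13.5 and 14.2 CPM under CR and 21.5, 17.4, 16.7 and 19.7 CPM in the middle group. These did not overlap either, but the difference of -0.57 ± 0.18 missed the threshold (edgeR adjusted p = 0.073). It passed with DESeq2 (-0.60, adjusted p = 0.0083) and without the oocyte libraries rich in cumulus markers (-0.59, edgeR adjusted p = 0.0302).

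The other 6 members were not called in CR oocytes in the main fit. Sod1 and Gclm each passed in 1 of 8 alternative settings. Sod1 had 268, 254 and 317 CPM under CR against 348, 345, 333 and 316 CPM (-0.26 ± 0.13, edgeR adjusted p = 0.26), where only CR3 reached the range of the middle mice. Prdx1, Gclc, Gclm and Sod2 differed by 0.04 to 0.16 on the log2 scale. Cat had a difference of -0.64 ± 0.46 with overlapping mice. The CR libraries were also the deepest of the experiment, and fold changes in this comparison rose with gene length (Spearman 0.23 across 14014 genes, which are not independent replicates). With a correction for gene length the same 3 genes passed, with 2.30 for Hmox1, 0.78 for Nfe2l2 and -1.05 for Gpx1. The part of depth in these differences was not tested.

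**Figure D3:**
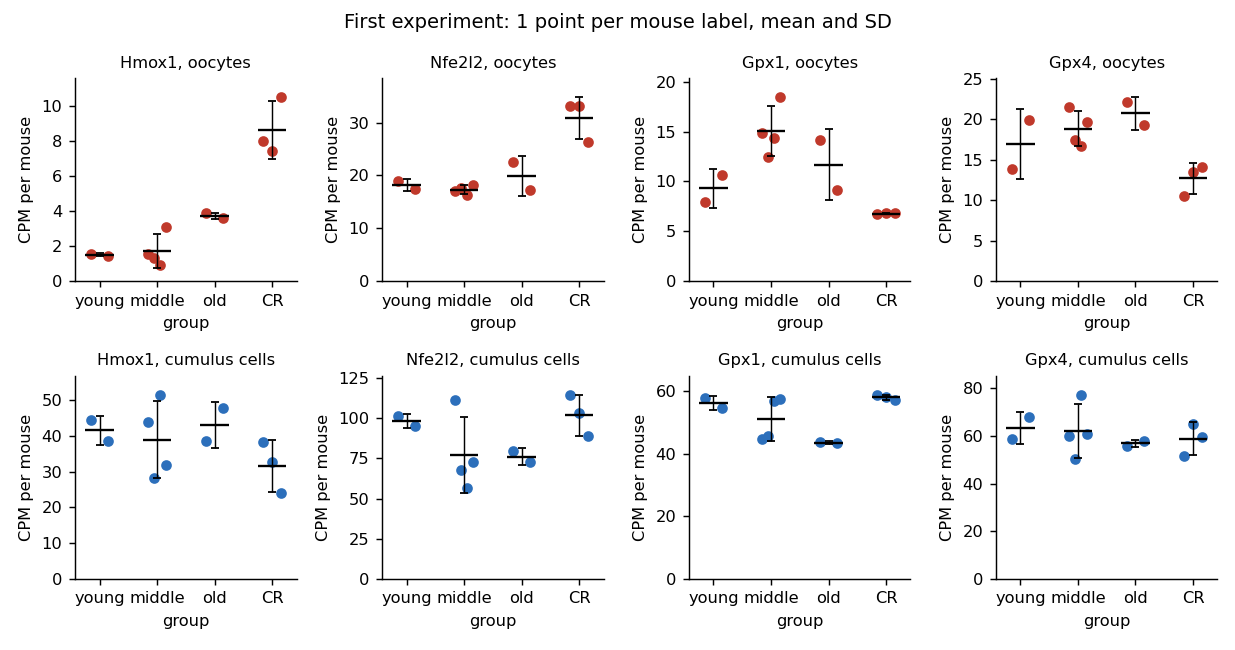
Hmox1, Nfe2l2, Gpx1 and Gpx4 in CPM for each mouse label of the first experiment, in oocytes (upper row) and cumulus cells (lower row), with the mean (long bar) and SD (whiskers). In oocytes the 3 CR mice lie above the 4 middle mice for Hmox1 and Nfe2l2 and below them for Gpx1 and Gpx4. In cumulus cells Hmox1, Gpx1 and Gpx4 overlap between these groups, and Nfe2l2 has means of 102 CPM under CR and 77.1 CPM in the middle group.

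In the cumulus cells of CR mice no member passed in edgeR, where 0.0769% of 28594 genes did. At an unadjusted p under 0.05 there were 2, Prdx1 and Sod1, and DESeq2 called 1. Prdx1 had 550, 521 and 489 CPM under CR and 385, 342, 322 and 407 CPM in the middle group, with no overlap between mice and a difference of 0.51 ± 0.11 (edgeR adjusted p = 0.13). It passed with DESeq2 (0.47, adjusted p = 0.0038). Sod1 had 215, 192 and 208 CPM against 189, 161, 118 and 176 CPM (0.34 ± 0.14, edgeR adjusted p = 0.45). Hmox1, which rose in CR oocytes, had 38.2, 32.8 and 23.9 CPM against 43.9, 28.3, 51.6 and 31.9 CPM in these cumulus cells. Nfe2l2, which also rose in CR oocytes, had cumulus means of 102 CPM under CR and 77.1 CPM in the middle group. That difference, 0.38 on the log2 scale, did not pass.

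The change under CR differed between the cell types for Hmox1. Tested in a joint fit, its change in oocytes exceeded that in cumulus cells by 2.74 ± 0.44 on the log2 scale (edgeR adjusted p = 0.0056), where 0.445% of genes passed. This is 1 of 10 members, with Gpx1 (-1.07 ± 0.33, edgeR adjusted p = 0.15) and Nfe2l2 (0.69 ± 0.32, edgeR adjusted p = 0.41) past an unadjusted p of 0.05 as well. Of 6 alternative settings, the difference passed in 5 for Hmox1, in 3 for Gpx1 and in 1 each for Sod1 and Prdx1. The Hmox1 difference was 0.89 (edgeR adjusted p = 0.76) with the left-out complex put back.

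Of 80 tested genes on the further lists, 4 passed in CR oocytes, 5% of the lists beside 7.1% of all genes, and 1 in CR cumulus cells, 1.25% beside 0.0769%. In oocytes the share on the lists was thus below that of all genes, and the genes are given singly. Cul3, the ubiquitin ligase scaffold through which NRF2 is degraded, rose by 1.08 ± 0.13 on the log2 scale in CR oocytes (from 50.7 to 108 CPM). Bach1, the repressor that competes with NRF2 at Hmox1 and other targets, rose by 0.90 ± 0.18 (15 to 28.9 CPM). The mitochondrial genes Txn2, a thioredoxin, and Prdx3, a peroxiredoxin, fell by 0.73 ± 0.15 and by 0.68 ± 0.14. The fits with the Middle3 complex put back and with the length correction were read for the members only, not for these genes. In CR cumulus cells Msra, which repairs oxidised methionine, fell by 1.27 ± 0.21 (21.2 to 8.81 CPM).

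**Figure D4:**
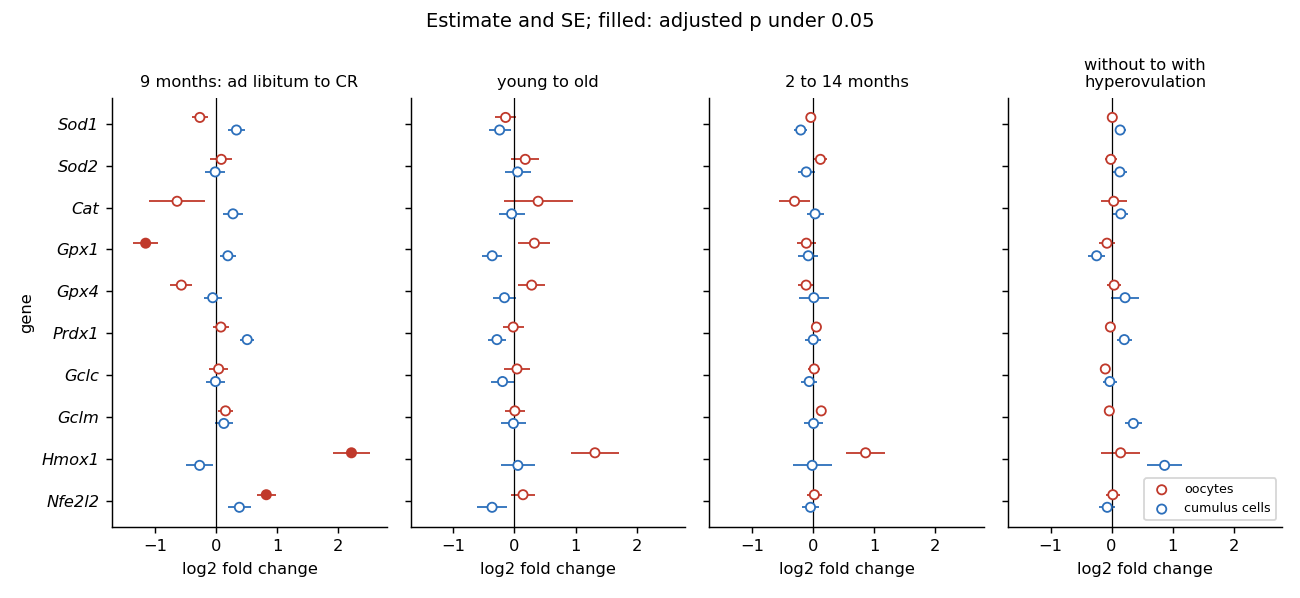
Log2 fold change with its SE for each gene in the comparisons of diet, age and hyperovulation, in oocytes and cumulus cells. Filled points have an edgeR adjusted p under 0.05, and these are Hmox1, Nfe2l2 and Gpx1 in CR oocytes.

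The third comparison followed the members with age. Across the 6 age comparisons of each cell type, 0 of 60 tests in oocytes and 0 of 60 in cumulus cells passed in edgeR, with 5 and 4 at an unadjusted p under 0.05, and DESeq2 also called none. Few genes of any kind passed in these comparisons. In oocytes of the first experiment none did from young to middle, young to old or middle to old (0% each, with 929, 2740 and 1428 genes at an unadjusted p under 0.05), and in its cumulus cells 0.0035%, 0.021% and 0% did. In the second experiment 0%, 0.0533% and 0.185% of 28123 genes passed in oocytes from 2 to 4, 2 to 9 and 2 to 14 months, and 0%, 0.0746% and 0.078% of 29491 in cumulus cells.

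Hmox1 in oocytes had the widest age difference, with old mice above young mice in both experiments. In the first experiment the labels of old mice had 3.86 and 3.61 CPM and the young mice 1.56 and 1.45 CPM (1.32 ± 0.39, edgeR adjusted p = 0.52). The old and young mice did not overlap. In the second experiment the 14-month mice had 1.22, 1.26, 1.80, 2.02 and 2.04 CPM and the 2-month mice 1.14, 0.969, 0.694, 0.785 and 1.21 CPM (0.86 ± 0.32, edgeR adjusted p = 0.34), again without overlap but with neighbours at 1.22 and 1.21 CPM. Cumulus markers moved the same way, with medians of 3.92% in old against 1.02% in young oocytes and 0.861% at 14 against 0.607% at 2 months. The difference from young to old was 1.09 without the libraries rich in cumulus markers (edgeR adjusted p = 0.28). At 4 months Hmox1 had 0.564 to 1.60 CPM (median 0.843 CPM, n = 8 mice) and at 9 months 0.341, 1.60, 0.369 and 0.374 CPM, so the level did not rise step by step with age.

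Among the other members, the age differences in oocytes ran from -0.35 to 0.68 on the log2 scale for Gpx1, from -0.30 to 0.39 for Cat and from -0.05 to 0.07 for Prdx1. In oocytes of the second experiment Prdx1 had group means of 500 to 543 CPM, Sod1 369 to 390 CPM and Gclm 57.4 to 65.2 CPM. Gpx1 in oocytes of the first experiment had 7.91 and 10.7 CPM in young, 14.9, 12.4, 14.4 and 18.5 CPM in middle, and 14.2 and 9.19 CPM in old labels. From young to middle that is a difference of 0.68 ± 0.24 (edgeR adjusted p = 1), and from 2 to 9 months of the second experiment it was 0.12 ± 0.16. In cumulus cells Sod1 had 162, 166, 143 and 139 CPM at 9 months against 190, 196, 175, 180 and 229 CPM at 2 months (-0.34 ± 0.11, edgeR adjusted p = 0.41). No member's age change differed between oocytes and cumulus cells from young to old (0 of 10, 1 at an unadjusted p under 0.05, where 0% of genes passed and 1525 had an unadjusted p under 0.05) or from 2 to 14 months (0 of 10, 0 at an unadjusted p under 0.05, where 0.0338% passed).

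The fourth comparison set 2-month mice with hyperovulation against 2-month mice without it. No member passed in either cell type in edgeR (0 and 2 at an unadjusted p under 0.05, 0 and 0 by DESeq2), where 0% of genes passed in oocytes, with 1241 at an unadjusted p under 0.05, and 1.67% in cumulus cells. In oocytes the 10 differences lay between -0.10 and 0.15 on the log2 scale. In cumulus cells Hmox1 had 98.6, 92.5, 64, 40 and 58 CPM with hyperovulation and 17.8 to 60.5 CPM (median 39 CPM, n = 8 mice) without it. The groups overlapped, and the difference was 0.87 ± 0.28 (edgeR adjusted p = 0.11). Gclm in cumulus cells had 123 to 157 CPM with and 72.0 to 133 CPM without hyperovulation (0.36 ± 0.14, edgeR adjusted p = 0.20). Summed cumulus markers were also lower without hyperovulation, at a median of 68.5% of the median cumulus library against 113%, and their part in these differences was not tested. The difference in change between the cell types passed for no member (0 of 10, with 1, Gclm, at an unadjusted p under 0.05, where 0.318% of genes passed).

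Of 79 tested genes on the further lists, 6 passed in cumulus cells between these groups, 7.59% of the lists beside 1.67% of all genes, with 3 in each direction. Gsta4, a glutathione transferase for lipid aldehydes, was 1.31 ± 0.25 higher with hyperovulation on the log2 scale, and Taldo1 and Idh1, which feed NADPH supply, were 0.66 ± 0.17 and 0.57 ± 0.12 higher. Chac1, which degrades glutathione, fell by 4.30 ± 1.07 from without to with hyperovulation. It varied widely between mice, at 21.2 ± 25.6 CPM (mean ± SD) without and 1.17 ± 1.27 CPM with hyperovulation. Coq10b and Maff, a partner of NRF2 on DNA, fell by 1.15 ± 0.24 and by 0.96 ± 0.22.

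The complexes of the second experiment carry codes that begin with B1 or B2, and the labels do not say what these stand for. Each group held mice of both. With the groups as terms, 7 of 10 members differed between B1 and B2 in cumulus cells, where 20.1% of genes passed, and 2 in oocytes, where 5.03% did. Hmox1 in cumulus cells had 43.4 to 98.6 CPM in B1 (median 66.1 CPM, n = 16 mice) and 17.8 to 59.5 CPM in B2 (median 35 CPM, n = 14 mice) and was 0.83 ± 0.12 lower on the log2 scale in B2, written as -0.83 from B1 to B2 (edgeR adjusted p = 5.3e-06). Gpx4 fell by 0.66 ± 0.09 from B1 to B2 (edgeR adjusted p = 1.4e-06), and Gpx1 and Prdx1 fell by 0.27 and by 0.19. Gclc, Gclm and Nfe2l2 were 0.26, 0.23 and 0.20 higher in B2. In oocytes Sod1 and Gpx4 fell by 0.19 and by 0.24.

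Within these codes, the hyperovulation difference of cumulus Hmox1 was 0.64 in B1 (60.5, 43.7, 53.8 and 58.8 CPM without and 98.6, 92.5 and 64 CPM with hyperovulation, edgeR adjusted p = 0.25) and 1.09 in B2 (20.4, 17.8, 34.3 and 19.4 CPM without and 40 and 58 CPM with it, edgeR adjusted p = 0.067). In each code every mouse with hyperovulation lay above every mouse without it. With the code as a covariate the difference was 0.84 and passed (edgeR adjusted p = 0.0087).

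**Figure D5:**
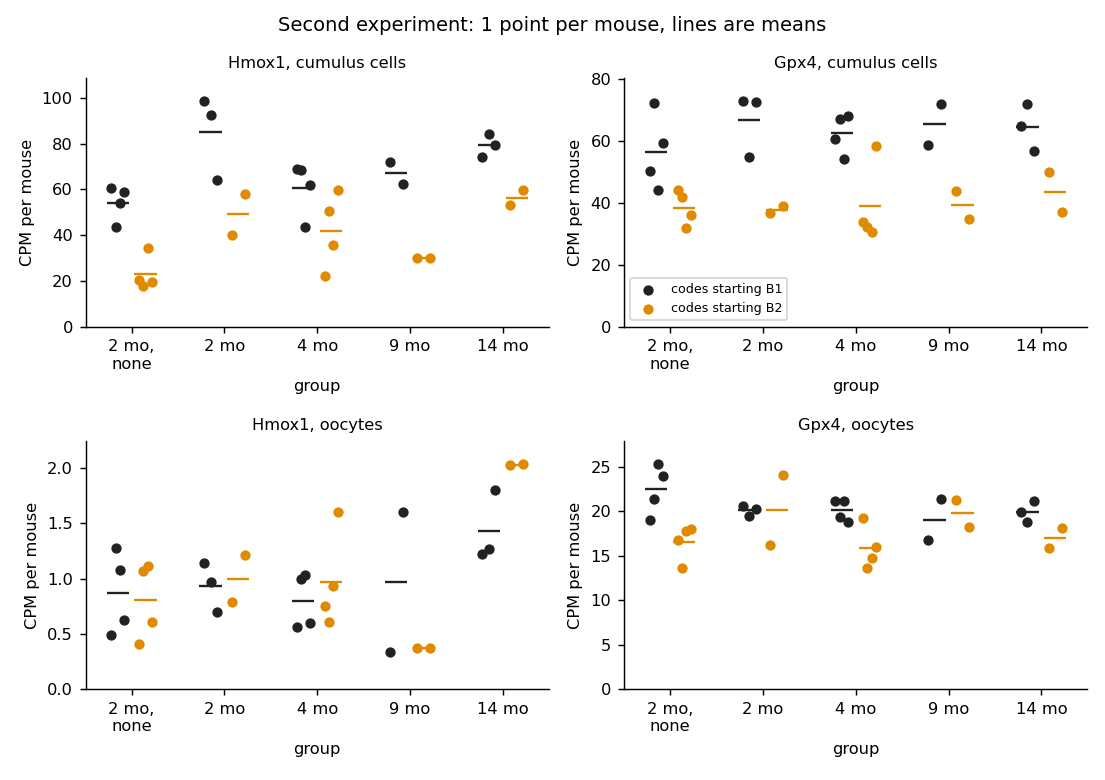
Hmox1 and Gpx4 in CPM for each mouse of the second experiment, in cumulus cells (upper row) and oocytes (lower row), by group and by whether the complex code begins with B1 (black) or B2 (orange). Horizontal bars are means, and "2 mo, none" marks 2-month mice without hyperovulation. In cumulus cells the B2 means lie below the B1 means in each group for both genes.

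The spread between mice differed from gene to gene. In oocytes of the second experiment the median coefficient of variation within a group was 6.1% for Gclm, 6.7% for Prdx1 and 9.2% for Sod1, against 22.9% for Cat and 38.9% for Hmox1. In its cumulus cells the widest were Hmox1 (34.7%) and Gpx4 (31.3%), the 2 members with the largest differences between the codes, and the narrowest was Sod1 (8.7%).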

How the data were processed

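The authors trimmed RamDA-seq reads with Fastq-mcf, aligned them with HISAT2 2.0.5 to GRCm38 and counted them per GENCODE gene with featureCounts 1.5.1, splitting reads that map to several places, so the deposited values are expected counts (36.8% and 35.1% of nonzero values are not whole). The authors also deposited RPKM, which for CR mice came from thinned counts, and these were used for levels between genes. Reads carry no molecular identifiers, so counts are not molecules and depth sets counting error only.

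Expected counts were summed per mouse label and cell type and rounded. Genes seen in 5 or more libraries were tested with edgeR 4.0.16 (quasi-likelihood F test, TMM, R 4.3.3) with all groups of a cell type and experiment in 1 fit, or both cell types together, and Benjamini-Hochberg adjustment over all genes. The SE is the log2 fold change over the square root of F. A call is an adjusted p under 0.05. Alternatives used DESeq2 1.42.0, limma 3.58.1 on differences within complexes, single libraries, other scalings and filters, and left-out mice. The length correction, the fit without libraries rich in cumulus markers and the tests by code were added after the data were seen. Scripts were tested on simulated data, where the CR comparison in oocytes and the comparison of young with old in cumulus cells made more false calls than the adjusted p allows. The 10 genes, the further lists (82 genes) and the markers were chosen with earlier results of these data known. All 10 genes are named, and genes of the further lists are named from the called genes of largest change, at most 3 per list and direction with a mean of at least 8 CPM. Between the cell types the leading gene of each list and direction is named, with Slc7a11 and Glrx chosen after their values were seen. Marker lists of theca, red blood cells, leukocytes, endothelium and stroma had library medians per group of at most 244 CPM. Single libraries reached more. Theca and luteal markers had up to 1356 CPM in middle oocytes, 1705 CPM in middle cumulus cells and 3343 CPM in 9-month cumulus cells of the second experiment.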

Additional observations from a re-analysis of the deposited data

Results flagged for a closer look

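The change of Hmox1 under CR differed between oocytes and cumulus cells by 2.74 on the log2 scale in the joint edgeR fit. Among 120 groups of 4 to 10 mice looked at, 5 held a mouse far from the others by Dixon's criterion, which chance alone gives in about 1 in 20 groups. In cumulus cells these were Gclm in the middle mouse Middle1 (184 CPM, next 142 CPM) and Prdx1 in the 2-month mouse 2mo36 (487 CPM, next 387 CPM). In oocytes they were Hmox1 in the 4-month mouse 4mo29 (1.6 CPM, next 1.03 CPM) and, in the 9-month mouse 9mo22, both Hmox1 (1.6 CPM, next 0.374 CPM) and Gclm (62.1 CPM, next 56.7 CPM).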

How the results depend on the processing

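With single libraries as replicates, the number of members called became 1 for young to old oocytes (0 with mouse sums), 5 for CR oocytes (3), 2 for CR cumulus cells (0) and 1 for hyperovulation in cumulus cells (0). Without the count filter it became 1 for young to old oocytes and 1 for CR cumulus cells. DESeq2 gave 5 in CR oocytes, 1 in CR cumulus cells and 4 for the difference between the cell types under CR (1 in edgeR), and library totals without TMM gave 2 there. All deposited libraries gave 0 in CR oocytes and 0 for that difference. Of the alternatives added after the data were seen, leaving out oocyte libraries rich in cumulus markers gave 2 for that difference. The code as a covariate gave 1 for hyperovulation in cumulus cells. The cause of these changes was not tested. Leaving out 1 mouse at a time gave 3 to 3 called members in CR oocytes, 9 to 10 and 10 to 10 between the cell types in the first and second experiment, and 0 to 0 in the age, CR cumulus and hyperovulation comparisons. Oocytes and cumulus cells of a mouse share its label, and with the mouse as a replicate block 9 and 10 members were called between the cell types and 1 for the difference under CR. With the complex as the replicate block 10 and 10 were called, and Gclm in the first experiment (-0.45) then passed. Groups of age, diet and hyperovulation are different mice, so no paired analysis was possible because they share no numbered animals. In all, 327 recomputed counts of called members stayed within 1.5 times and 14 did not, and no log2 fold change reversed a call. The 327 include comparisons with 0 members called before and after, so this tally does not measure how stable a call is. Oocyte Hmox1 is limited by depth, with a median of 2 counts per library in the second experiment.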
